A study of Mus musculus with 24 samples.

Results

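The platelet-derived growth factor (PDGF) genes described here are the receptors Pdgfra and Pdgfrb and the ligands Pdgfa, Pdgfb and Pdgfc. They were chosen by name as 5 genes of the 30590 gene symbols in the day 1 to 4 count files, and as the same 5 genes of the 43629 identifiers in the endpoint files. All 5 passed the filter on low counts in every fit. Polyadenylated RNA had been sequenced from E14 mouse embryonic stem cells (mESCs) of 129/Ola background. Cells labelled as AGO2 knockout (KO), for the Argonaute protein that carries microRNAs to their target RNAs, were set against wild-type (WT) cells. Both genotypes were taken through directed differentiation towards extraembryonic endoderm (XEN) on gelatin, in RPMI 1640 with 15% serum, 0.1 µM all-trans retinoic acid and 10 ng/mL activin A, a protocol of 5 days.

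The course comprised KO and WT cells on days 1, 2, 3 and 4, with 2 libraries in each of these 8 groups. The endpoint libraries comprised 2 of KO cells named diff_XEN, 2 of WT cells named diff_XEN, and 2 of undifferentiated WT mESCs at passages 33 and 42, kept in serum with 100 U/mL LIF. The file headers give the KO diff_XEN libraries as clones C4 and 5-3, 1 library a clone, and the WT diff_XEN libraries as A and B. For the course, the labels name no KO clone, and for diff_XEN they give no day. Replicates are not stated to be separate cultures, so a p-value speaks only of the spread among the libraries at hand. That spread may be technical in the course and in WT diff_XEN. The KO diff_XEN libraries differ by clone and the WT mESC libraries by passage. KO mESCs were not analysed here.

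PDGF ligands are secreted dimers that bind receptor tyrosine kinases at the cell surface. Binding pairs the receptor chains, which phosphorylate each other and recruit adaptors, phosphatidylinositol 3-kinase, phospholipase C and Src kinases. PDGF-A and PDGF-C chains act mainly through the alpha receptor, whereas PDGF-B binds both receptors. In the early mouse embryo the alpha receptor marks the primitive endoderm, the lineage that XEN cells represent, and the beta receptor is best known from pericytes, vascular smooth muscle and mesenchyme.

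The 5 genes lie on 4 chromosomes in mm10, with positions from the GENCODE M21 annotation of the same assembly. Pdgfra spans chr5:75152292-75198215 on the plus strand and Pdgfa spans chr5:138976014-138997370 on the minus strand. Pdgfc spans chr3:81036416-81214040 on the plus strand, Pdgfrb spans chr18:61045150-61085061 on the plus strand, and Pdgfb spans chr15:79995874-80014977 on the minus strand. Pdgfb is the only member on the chromosome of Ago2, 6.81 Mb away. Exons of Pdgfa overlap those of the antisense gene 6330403L08Rik, which had 8 to 170 counts in any library. Pdgfc exons overlap those of antisense Gm16000, with 0 to 2 counts. Pdgfra exons overlap those of the microRNA gene Mir7025 on the same strand, with 0 to 9 counts. They also overlap Gm42802 and Gm42803 on the opposite strand, for which no counts were given. The labels call the libraries reverse-stranded and the strand setting of the counting is not given, so reads of Pdgfa and 6330403L08Rik may be shared.

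Total counts were 10601574 to 27147835 per course library and 13941826 to 40139219 per endpoint library, and the members had 27 to 1914 counts in a course library and 141 to 27728 in an endpoint library. Ago2, the gene named in the genotype, read 33.8 to 148 CPM (the read count scaled to the adjusted library total) in KO course libraries against 186 to 581 CPM in WT course libraries. In the endpoint libraries it read 115 CPM in clone C4 and 9.35 CPM in clone 5-3, against 311 to 619 CPM in the WT libraries. Of 21 primitive endoderm and XEN marker genes, all 21 were higher in WT cells on day 4 than on day 1. All 21 were also higher in WT diff_XEN than in WT mESCs, where study and cell state cannot be told apart. Over all tested genes the median log2 fold changes were 0.0125 and -0.000174 in these comparisons. In the first, 26.9% of all tested genes were called higher, and in the second 52.5% were called in either direction.

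Because AGO2 acts through microRNAs, the 3′ untranslated regions (3′ UTRs) of the members were searched for the complement of 4 microRNA seeds, which are bases 2 to 8 of the mature microRNA. The seed of mmu-miR-29a-3p, shared with mmu-miR-29b-3p and mmu-miR-29c-3p, had a match in the longest annotated 3′ UTR of all 5 members, namely 2 in Pdgfra and 1 in each of Pdgfrb, Pdgfa, Pdgfb and Pdgfc. The same 7 letters, TGGTGCT, were found in 13.1% of 21020 mouse 3′ UTRs. Among 3′ UTRs within 20% of each member's length, the share was 26.5% for Pdgfra, 14% for Pdgfrb, 11.9% for Pdgfa, 12.8% for Pdgfb and 12.8% for Pdgfc. The microRNA from RefSeq (GRCm38.p6) is printed below with its seed in capitals, followed by the sites of Pdgfra, Pdgfa, Pdgfb and Pdgfc in the GENCODE M21 transcripts with the letters that pair with the seed in capitals, each named by the position of the match counted from the first base of the 3′ UTR. The Pdgfrb site is not printed.
mmu-miR-29a-3p: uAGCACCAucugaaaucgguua
Pdgfra, position 1265: cctgagaccacaaTGGTGCTgttgaa
Pdgfra, position 1426: tatatgaactgccTGGTGCTcttgaa
Pdgfa, position 70: aacatactatgtaTGGTGCTtcattg
Pdgfb, position 128: ttcggacggccaaTGGTGCTtccctc
Pdgfc, position 922: tttcttccttgtaTGGTGCTagagct

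The other seeds gave fewer matches. That of mmu-miR-294-3p, of a microRNA cluster abundant in mESCs, had none in the 5 members, where 12.5% to 30.5% of 3′ UTRs of like length had one. The let-7a seed had 1 match in Pdgfb, as did 9.7% of 3′ UTRs of like length. The miR-34a seed had 1 match in each of Pdgfra, Pdgfrb and Pdgfc, where the shares were 28.2%, 18.1% and 16.2%. A match describes the letters only, and neither microRNA levels nor AGO2 binding were measured here.

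Pdgfra, the alpha receptor, was lower in KO than in WT cells on each of days 1 to 4. On day 1 it read 3.05 and 1.24 CPM in KO cells, against 7.05 and 8.24 CPM in WT cells. On day 2 it read 6.32 and 9.22 CPM in KO cells, against 23.2 and 16.4 CPM in WT cells. On day 3 it read 9.24 and 16 CPM in KO cells, against 38.9 and 64.1 CPM in WT cells. The groups did not overlap on these days, and both genotypes climbed. On day 4 Pdgfra read 32.8 and 40.0 CPM in KO cells, against 74.2 and 91.4 CPM in WT cells. The KO libraries of day 4 lay on either side of the lower WT library of day 3, and again below both WT libraries of their own day.

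In edgeR's quasi-likelihood test with Benjamini-Hochberg adjustment over all genes, Pdgfra fell in KO cells on day 1, with a log2 fold change of -1.81 ± 0.40 (SE, adjusted p = 0.0195). It also fell on day 3, with a log2 fold change of -2.06 ± 0.36 (adjusted p = 0.00628). The differences of -1.35 ± 0.36 on day 2 (adjusted p = 0.0855) and -1.18 ± 0.34 on day 4 (adjusted p = 0.0557) missed the threshold of 0.05, and both passed it in the Wald test of DESeq2 (adjusted p = 0.00809 and 0.0149). Averaged over the 4 days, Pdgfra fell with a log2 fold change of -1.60 ± 0.18 (adjusted p = 5.66e-05), with KO below WT on 4 of 4 days. The day 1 call was lost without the second WT library (-1.65, adjusted p = 0.159) or without the second KO library (-1.31, adjusted p = 0.251). The day 3 call was lost without the second WT library (-1.63, adjusted p = 0.0533), without the first KO library (-1.67, adjusted p = 0.0616) and in a fit of the 4 day 3 libraries alone (-2.07, adjusted p = 0.127). Pdgfra is expressed by primitive endoderm, and 18 of 21 markers of that lineage were also lower in KO cells over the 4 days. For that mean, 17.5% of all tested genes were called in either direction, and the median log2 fold change over all tested genes was -0.01. The 21 markers summed on day 4 to 6038 to 7626 CPM in KO cells against 18490 to 20440 CPM in WT cells. Their part in the Pdgfra difference was not tested, and in bulk RNA fewer expressing cells and less RNA per cell cannot be told apart.

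Pdgfra was also lower in KO than in WT diff_XEN. The gene read 29.1 CPM in KO clone C4 and 41.5 CPM in clone 5-3, against 263 and 758 CPM in WT libraries A and B. Both clones lay below both WT libraries, and the WT libraries lay further apart than the clones. The log2 fold change was -3.82 ± 0.56 (adjusted p = 0.00542). Within the WT cells, diff_XEN stood above mESCs, which read 4.85 and 12.9 CPM at passages 33 and 42, by 5.85 ± 0.70 on the log2 scale (adjusted p = 0.000723). Per the labels, both of these groups come from earlier studies, so study and cell state cannot be told apart in that comparison.

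Pdgfrb, the beta receptor, was lower in KO than in WT cells at the start of the course and higher at its end. On day 1 it read 15.4 and 11 CPM in KO cells, against 28.0 and 29.9 CPM in WT cells. On day 4 it read 125 and 117 CPM in KO cells, against 82.9 and 81.4 CPM in WT cells. The groups did not overlap on either day. Between these days the groups overlapped: day 2 gave 33.7 and 44.5 CPM in KO cells against 48.7 and 34.1 CPM in WT cells, and day 3 gave 59.2 and 113 CPM in KO cells against 77.2 and 22.7 CPM in WT cells. The second WT library of day 3 was the lowest of the 8 WT libraries of the course.

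None of these 4 day-wise differences of Pdgfrb passed the test. The log2 fold change was -1.13 ± 0.46 on day 1 (adjusted p = 0.111), -0.08 ± 0.44 on day 2 (adjusted p = 0.958), 0.79 ± 0.45 on day 3 (adjusted p = 0.351) and 0.56 ± 0.44 on day 4 (adjusted p = 0.533). Their mean was 0.03 ± 0.22 (adjusted p = 0.943). The day 1 difference passed in the DESeq2 Wald test (adjusted p = 0.0387) and in a fit of the 4 day 1 libraries (adjusted p = 0.00535), and the day 4 difference in a fit of the 4 day 4 libraries (0.54, adjusted p = 0.0424). Without the first WT library the day 3 difference was 1.92 (adjusted p = 0.00336).

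In diff_XEN the beta receptor was far higher in KO cells. Pdgfrb read 97.9 CPM in clone C4 and 163 CPM in clone 5-3, against 15.4 and 10.3 CPM in WT libraries A and B. Both clones exceeded both WT libraries. It rose by 3.37 ± 0.36 on the log2 scale in KO cells (adjusted p = 0.00297), and this call held when any 1 of the 4 libraries was left out, as did those of Pdgfra and Pdgfc. WT mESCs read 6.57 and 5.76 CPM. WT diff_XEN was higher than WT mESCs by 1.06 ± 0.32 on the log2 scale (adjusted p = 0.0272), a call lost without the passage 33 library (1.18, adjusted p = 0.0629), without the passage 42 library (0.97, adjusted p = 0.108) or without WT library A (0.79, adjusted p = 0.154).

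**Figure D1:**
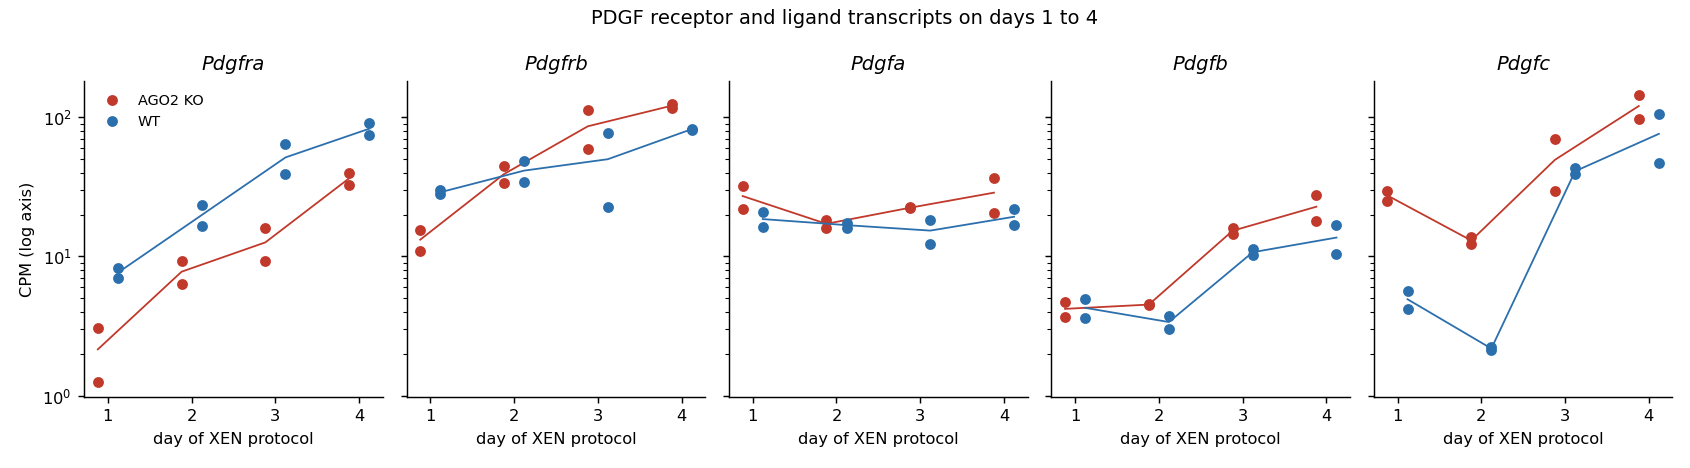
Expression (CPM, log axis) of the 5 PDGF genes in each library against the day of the XEN protocol, with KO libraries in red and WT libraries in blue and lines joining the group means of 2 libraries. Pdgfra is lower in KO cells on all 4 days, and Pdgfc is higher in KO cells on days 1 and 2.

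Between the receptors the balance can be read only per length, so CPM was divided by the exon length of each gene, 10.02 kb for Pdgfra and 5.48 kb for Pdgfrb. These lengths join the exons of all annotated transcripts, and the transcripts expressed were not determined, so ratios between genes depend on them. As CPM per kb, Pdgfrb exceeded Pdgfra in all 8 KO course libraries and in 7 of 8 WT course libraries. The log2 ratio of Pdgfra to Pdgfrb per kb was -3.21 and -4.01 in KO cells on day 1, against -2.86 and -2.73 in WT cells. On day 4 it was -2.80 and -2.42 in KO cells, against -1.03 and -0.70 in WT cells. Before division by length, the 2 genes overlapped in WT cells of day 4, at 74.2 and 91.4 CPM for Pdgfra and 82.9 and 81.4 CPM for Pdgfrb. The ratio was lower in KO than in WT cells on each of the 4 days without overlap. The second WT library of day 3 was the exception among course libraries, with 0.62 against -1.86 in the first. In diff_XEN the ratio was -2.62 in clone C4 and -2.84 in clone 5-3, against 3.22 and 5.33 in WT libraries A and B. Pdgfra per kb was thus 0.162 and 0.139 of Pdgfrb in the KO clones, against 9.35 and 40.2 times Pdgfrb in the WT libraries, and in WT mESCs it was 0.403 and 1.22 times Pdgfrb. No test was run on the ratio itself.

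**Figure D2:**
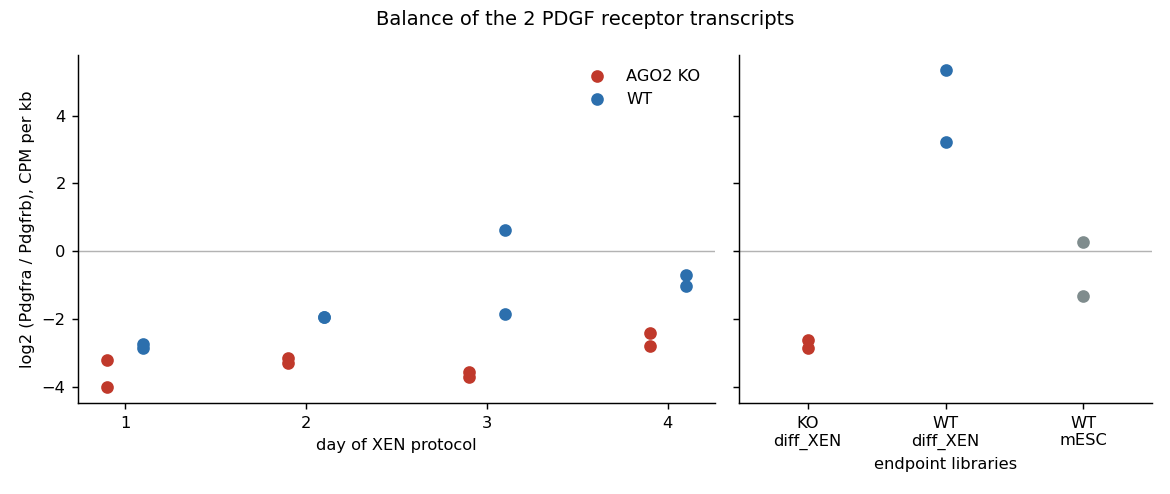
Log2 ratio of Pdgfra to Pdgfrb, each as CPM per kb of exon, with 1 point a library, by day of the course (left) and in the endpoint libraries (right). KO libraries stay between -4.01 and -2.42 throughout, while the 2 WT diff_XEN libraries lie at 3.22 and 5.33.

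Pdgfc, a ligand secreted with a protective CUB domain that must be cut off, was the ligand with the widest range. On day 1 it read 29.7 and 25.1 CPM in KO cells, against 4.17 and 5.68 CPM in WT cells. On day 2 it read 12.3 and 13.8 CPM in KO cells, against 2.23 and 2.13 CPM in WT cells. KO cells were above WT cells on both days without overlap. On day 3 it read 29.7 and 69.3 CPM in KO cells, against 42.9 and 39.1 CPM in WT cells, and on day 4 it read 144 and 97.3 CPM in KO cells, against 105 and 47.3 CPM in WT cells. From day 3 the groups overlapped.

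Pdgfc rose in KO cells on day 1 by 2.48 ± 0.42 on the log2 scale (adjusted p = 0.00855) and on day 2 by 2.58 ± 0.46 (adjusted p = 0.0157). The differences of 0.26 ± 0.39 on day 3 (adjusted p = 0.753) and 0.67 ± 0.38 on day 4 (adjusted p = 0.362) did not pass, and the mean over the 4 days was 1.5 ± 0.21 (adjusted p = 0.000388). The day 1 call was lost without the second WT library (2.76, adjusted p = 0.0688) or the second KO library (2.61, adjusted p = 0.0798). The day 2 call was lost without any 1 of its 4 libraries, with 2.5 to 2.65 in those fits. In diff_XEN Pdgfc read 227 and 229 CPM in clones C4 and 5-3, against 28.2 and 14 CPM in WT libraries A and B, a rise of 3.46 ± 0.37 on the log2 scale (adjusted p = 0.00297). WT mESCs read 14.7 and 16 CPM, and WT diff_XEN differed from them by 0.46 ± 0.32 (adjusted p = 0.266), which passed without WT library B (0.91, adjusted p = 0.0336).

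Pdgfa, the main ligand of the alpha receptor, varied little over the course. On day 1 it read 22.0 and 32.3 CPM in KO cells, against 20.8 and 16.3 CPM in WT cells. On day 4 it read 36.9 and 20.6 CPM in KO cells, against 21.8 and 16.8 CPM in WT cells. Its other course libraries lay between 16.1 and 22.5 CPM in KO cells and between 12.3 and 18.4 CPM in WT cells. KO cells were above WT cells without overlap on days 1 and 3, and overlapped them on days 2 and 4. The log2 fold changes were 0.55 ± 0.27 on day 1, 0.03 ± 0.28 on day 2, 0.55 ± 0.28 on day 3 and 0.57 ± 0.28 on day 4, none called (adjusted p = 0.176 to 0.977). Their mean, 0.43 ± 0.14, passed with an adjusted p of 0.0472, and that call was lost in 11 of the 16 fits that left out 1 course library (0.33 to 0.47).

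In diff_XEN Pdgfa read 54.6 CPM in clone C4 and 25.6 CPM in clone 5-3, against 13 and 11.3 CPM in WT libraries A and B. Both clones exceeded both WT libraries, with C4 above 5-3. It rose by 1.74 ± 0.37 on the log2 scale in KO cells (adjusted p = 0.0154), a call lost without WT library A (1.82, adjusted p = 0.0685) or B (1.68, adjusted p = 0.0959). The mESC libraries were far apart, at 40.9 CPM for passage 33 and 10.8 CPM for passage 42. The difference between WT diff_XEN and WT mESCs was -1.09 ± 0.61 (adjusted p = 0.166), and -1.75 without the passage 42 library (adjusted p = 0.0239).

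Pdgfb, the ligand of both receptors, overlapped between the genotypes on day 1 and was higher in KO cells from day 2. On day 1 it read 4.72 and 3.68 CPM in KO cells, against 4.93 and 3.62 CPM in WT cells. On day 2 it read 4.45 and 4.57 CPM in KO cells, against 3.75 and 3.01 CPM in WT cells. On day 3 it read 14.5 and 16.1 CPM in KO cells, against 11.3 and 10.2 CPM in WT cells, and on day 4 it read 27.5 and 18.1 CPM in KO cells, against 16.9 and 10.5 CPM in WT cells. The groups did not overlap from day 2 on. None of these day-wise differences passed the test: they were -0.02 ± 0.28 on day 1 (adjusted p = 0.97), 0.42 ± 0.29 on day 2 (adjusted p = 0.569), 0.51 ± 0.27 on day 3 (adjusted p = 0.312) and 0.74 ± 0.27 on day 4 (adjusted p = 0.124).

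The mean of Pdgfb over the 4 days was 0.41 ± 0.14 (adjusted p = 0.0559), just short of the threshold, and it passed with DESeq2 size factors (0.43, adjusted p = 0.0473) and in the DESeq2 Wald test (0.43, adjusted p = 0.03), and in 5 of the 16 fits that left out 1 course library. In diff_XEN Pdgfb read 22.4 CPM in clone C4 and 12.4 CPM in clone 5-3, against 6.06 and 4.05 CPM in WT libraries A and B. It rose by 1.79 ± 0.38 on the log2 scale in KO cells (adjusted p = 0.015). This call was lost without WT library B (1.57, adjusted p = 0.0798) or clone C4 (1.36, adjusted p = 0.0723). WT mESCs read 4.08 and 3.87 CPM, and WT diff_XEN differed from them by 0.35 ± 0.40 (adjusted p = 0.486).

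**Figure D3:**
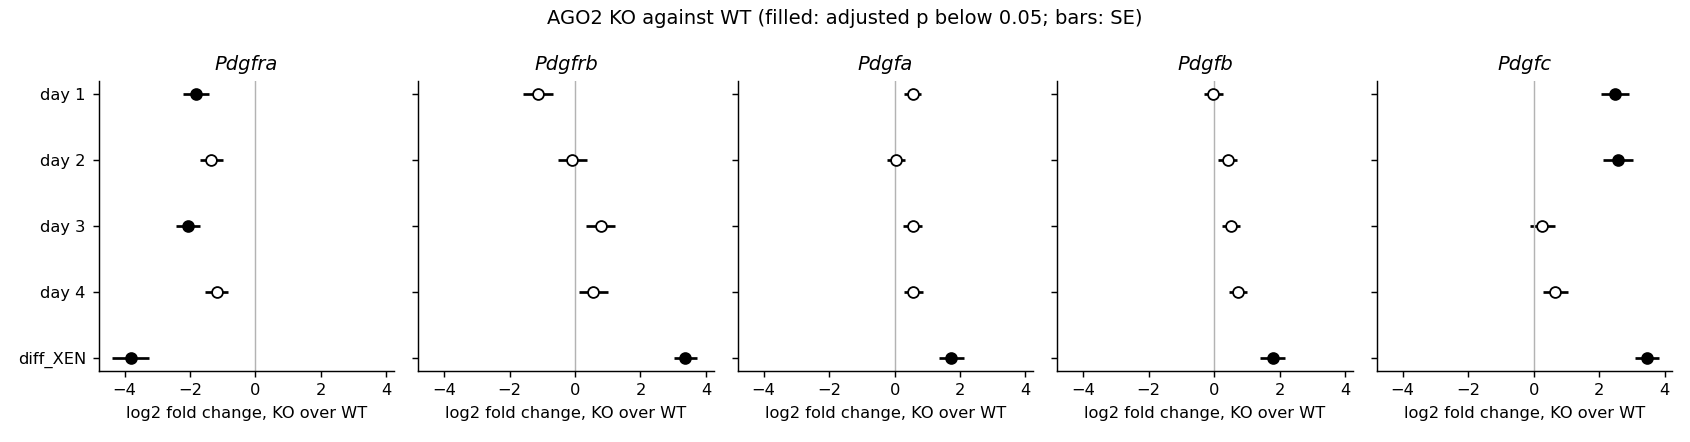
Log2 fold change of KO over WT for each PDGF gene on days 1 to 4 and in diff_XEN, with bars of 1 SE from edgeR and filled points where the adjusted p is below 0.05. Pdgfra lies left of 0 at all 5 stages, and in diff_XEN all 5 genes are called, with only Pdgfra lower.

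Counted over the members, KO and WT differed in 2 of 5 on day 1, where 13.6% of all tested genes were called. On day 2 it was 1 of 5, against 1.63% of all genes, and on day 3 it was 1 of 5, against 4.83%. On day 4 edgeR called 0 of 5 members, against 7.04% of all genes, with 2 of 5 at an unadjusted p below 0.05, where 20.7% of all tested genes were, and 1 of 5 called by the DESeq2 Wald test, against 9.75% of the genes to which it gave an adjusted p. The mean of the days called 3 of 5, against 17.5% of all genes. In diff_XEN all 5 were called, 4 higher and Pdgfra lower, where 47% of all tested genes were called, 22.1% higher and 24.9% lower. Their median log2 fold change there was 1.79, beside -0.02 over all tested genes. Without 1 library at a time, 3 to 5 members were called in diff_XEN.

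**Figure D4:**
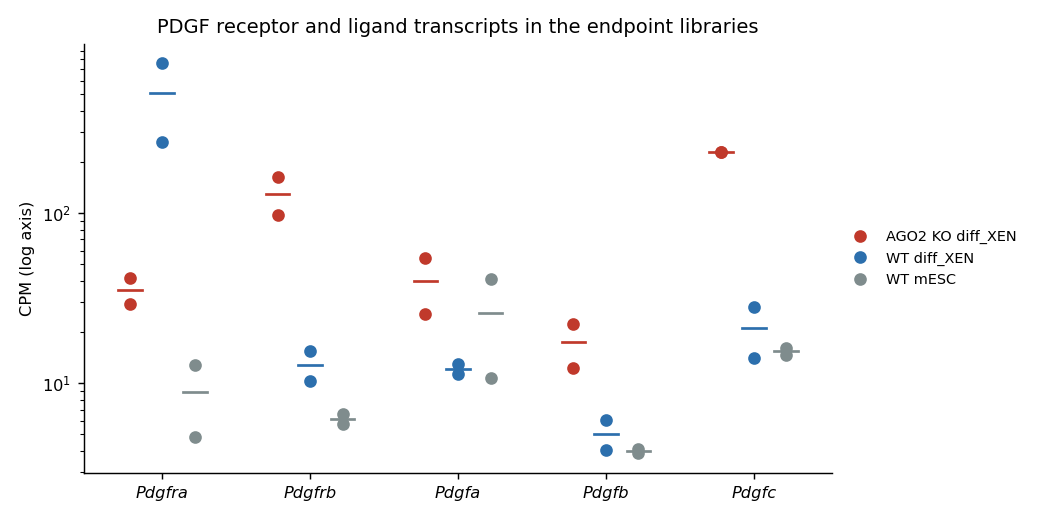
Expression (CPM, log axis) of the 5 PDGF genes in the endpoint libraries, with 1 point a library and a bar at the mean of 2 libraries. Pdgfra is highest in WT diff_XEN (263 and 758 CPM), whereas Pdgfrb, Pdgfa, Pdgfb and Pdgfc are higher in KO than in WT diff_XEN.

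Per length, the order of the members differed between the genotypes. On day 1 Pdgfa led in KO cells with 7.07 and 10.4 CPM per kb, followed by Pdgfc with 5.83 and 4.94, Pdgfrb with 2.82 and 2.00, Pdgfb with 1.13 and 0.885 and Pdgfra with 0.305 and 0.124 CPM per kb, and no neighbours in that order overlapped. In WT cells of day 1, Pdgfa with 6.68 and 5.22 and Pdgfrb with 5.11 and 5.45 CPM per kb led and overlapped, above Pdgfb with 1.18 and 0.869, Pdgfc with 0.819 and 1.12 and Pdgfra with 0.703 and 0.823 CPM per kb. Among these lower genes, Pdgfc overlapped both Pdgfb and Pdgfra. On day 4 Pdgfc, with 28.2 and 19.1, and Pdgfrb, with 22.9 and 21.3 CPM per kb, overlapped at the top in KO cells, and Pdgfra was last with 3.27 and 3.99 CPM per kb. In WT cells of day 4, Pdgfrb with 15.1 and 14.9 and Pdgfc with 20.6 and 9.30 CPM per kb overlapped at the top, and Pdgfb was last with 4.06 and 2.51 CPM per kb.

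The endpoint libraries were ordered otherwise. In KO diff_XEN, Pdgfc led with 44.7 and 45.0 CPM per kb in clones C4 and 5-3. Pdgfrb followed with 17.9 and 29.7 CPM per kb and Pdgfa with 17.5 and 8.21 CPM per kb, and these neighbours were not separated beyond the spread of the clones because Pdgfrb and Pdgfa were near equal in C4. Pdgfb, with 5.39 and 2.97 CPM per kb, and Pdgfra, with 2.90 and 4.14 CPM per kb, came last and overlapped. In WT diff_XEN, Pdgfra led with 26.3 and 75.6 CPM per kb in libraries A and B. Pdgfc, with 5.55 and 2.75 CPM per kb, Pdgfa, with 4.16 and 3.61 CPM per kb, and Pdgfrb, with 2.81 and 1.88 CPM per kb, followed, of which Pdgfc overlapped both others. Pdgfb came last with 1.46 and 0.972 CPM per kb.

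Over time, 4 of 5 members rose between day 1 and day 4 in each genotype. In KO cells, where 66.3% of all tested genes were called in this comparison and 33.3% higher, Pdgfra rose by 4.06 ± 0.41 on the log2 scale, Pdgfrb by 3.19 ± 0.48, Pdgfb by 2.43 ± 0.28 and Pdgfc by 2.13 ± 0.39 (adjusted p = 2.51e-06 to 0.00046). In WT cells, where 48.5% of all tested genes were called and 26.9% higher, Pdgfra rose by 3.44 ± 0.38, Pdgfrb by 1.51 ± 0.45, Pdgfb by 1.67 ± 0.28 and Pdgfc by 3.95 ± 0.44 (adjusted p = 1.01e-05 to 0.016). The Pdgfrb call in WT cells was lost without any 1 of its 4 libraries (1.43 to 1.52). Pdgfa differed by 0.08 ± 0.27 in KO cells (adjusted p = 0.809) and 0.05 ± 0.28 in WT cells (adjusted p = 0.89).

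The difference between the genotypes in this change was itself tested. It was 1.69 ± 0.63 for Pdgfrb (adjusted p = 0.117), -1.81 ± 0.56 for Pdgfc (adjusted p = 0.0698), 0.76 ± 0.39 for Pdgfb (adjusted p = 0.224), 0.62 ± 0.52 for Pdgfra (adjusted p = 0.468) and 0.03 ± 0.39 for Pdgfa (adjusted p = 0.977). edgeR thus called 0 of 5 members, against 6.42% of all genes, with 2 of 5 at an unadjusted p below 0.05, where 27.3% of all genes were. The DESeq2 Wald test, which called 15.4% of the genes to which it gave an adjusted p, called these 2, Pdgfrb (1.70, adjusted p = 0.0292) and Pdgfc (-1.81, adjusted p = 0.0118). Without the second WT library of day 4, edgeR also called Pdgfc (-2.28, adjusted p = 0.0285).

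The steps from day to day placed the changes. Between day 1 and day 2, Pdgfra rose by 1.83 ± 0.40 in KO cells (adjusted p = 0.00292) and by 1.37 ± 0.36 in WT cells (adjusted p = 0.0157). In KO cells Pdgfrb also rose at that step, by 1.56 ± 0.46 (adjusted p = 0.0172), and Pdgfc fell by 1.07 ± 0.39 (adjusted p = 0.0434), so that 3 of 5 members were called, where 43% of all tested genes were. In WT cells 1 of 5 was called at that step, against 21.3% of all genes, and Pdgfc differed by -1.17 ± 0.48 (adjusted p = 0.101). The WT call of Pdgfra was lost without either WT library of day 1 or the first of day 2 (1.11 to 1.49), and the KO call of Pdgfrb without the second KO library of either day (1.32 to 1.34). The Pdgfc call in KO cells was lost without any 1 of its 4 libraries (-1.19 to -1.01). Pdgfa differed at that step by -0.66 ± 0.27 in KO cells (adjusted p = 0.0638), which passed in the DESeq2 Wald test (-0.70, adjusted p = 0.0459), and by -0.14 ± 0.28 in WT cells (adjusted p = 0.751). The WT difference of Pdgfc passed in the DESeq2 Wald test as well (adjusted p = 0.0235).

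Pdgfb and Pdgfc, but not Pdgfa, were called between day 2 and day 3 in both genotypes. Pdgfb rose then by 1.76 ± 0.28 in KO cells (adjusted p = 0.0025) and by 1.67 ± 0.29 in WT cells (adjusted p = 0.00342). Pdgfc rose by 1.91 ± 0.40 in KO cells (adjusted p = 0.0126) and by 4.23 ± 0.47 in WT cells (adjusted p = 0.000464), and in WT cells Pdgfra rose by 1.38 ± 0.35 (adjusted p = 0.0216). Pdgfa differed by 0.39 ± 0.28 in KO cells (adjusted p = 0.418) and by -0.14 ± 0.28 in WT cells (adjusted p = 0.781). Called at this step were 2 of 5 members in KO cells, against 9.35% of all genes, and 3 of 5 in WT cells, against 13.3%. The Pdgfc call in KO cells was lost without either KO library of day 2 (1.83 and 1.98) or the second of day 3 (1.18), and the Pdgfra call in WT cells was lost without either WT library of day 2 or the second of day 3 (0.94 to 1.65). In fits of the 4 libraries of that step alone, Pdgfc in KO cells (1.91, adjusted p = 0.0597) and Pdgfra in WT cells (1.36, adjusted p = 0.0703) missed the threshold. Pdgfrb differed at that step by 1.13 ± 0.45 in KO cells (adjusted p = 0.135), which passed in the DESeq2 Wald test (adjusted p = 0.0413), and by 0.27 ± 0.45 in WT cells (adjusted p = 0.727).

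Between day 3 and day 4, edgeR called 0 of 5 members in either genotype, where it called 0.35% of all genes in KO cells and 1.22% in WT cells. At an unadjusted p below 0.05 there were 3 of 5 in KO cells, against 18.6% of all genes, and 1 of 5 in WT cells, against 19.7%. The DESeq2 Wald test, which called 5.55% of the genes with an adjusted p in KO cells and 6.57% in WT cells, called 2 of 5 in KO cells, Pdgfra (1.57, adjusted p = 0.00152) and Pdgfc (1.31, adjusted p = 0.0166), and 0 of 5 in WT cells. Without the second KO library of day 3, edgeR called both in KO cells, Pdgfra (1.98, adjusted p = 0.0171) and Pdgfc (2.02, adjusted p = 0.00985). Without the first WT library of day 3 it called Pdgfrb in WT cells (1.83, adjusted p = 0.00563). Between WT diff_XEN and WT mESCs, 2 of 5 members were called, Pdgfra and Pdgfrb, against 52.5% of all genes.

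As a description over the 16 course libraries, which share days and genotypes, log2 CPM of Pdgfb and Pdgfc had a Pearson correlation of 0.87, Pdgfrb and Pdgfb of 0.77, and Pdgfra and Pdgfrb of 0.71. Pdgfra and Pdgfa had one of -0.35. Likeness was ranked among 11016 genes that averaged 5 CPM or more, with predicted and clone-named genes left out. Those most alike to Pdgfra were the basement membrane collagens Col4a1 (0.977) and Col4a2 (0.976), then Flrt3 (0.971), Pros1 (0.968) and Fam46a (0.959). Closest to Pdgfrb were Rbfox2 (0.98), Myo9b (0.979) and the intermediate filament gene Synm (0.974). Closest to Pdgfb were the actin-depolymerizing factor gene Dstn (0.986), Fermt2 (0.979) and Picalm (0.977), and closest to Pdgfc were Rabl3 (0.957), Vwa9 (0.948) and Tmsb4x (0.94). Pdgfa had no neighbour above 0.905 among these genes, its closest being Slc9a3r2 (0.905), Ube2z (0.9) and Polr2m (0.894).

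The remaining family genes were followed in the same fits. Pdgfd encodes the ligand that acts mainly through the beta receptor, and Pdgfrl encodes a secreted protein resembling the receptor's outer part. Pdgfrl read 25.7 and 34.1 CPM in KO diff_XEN, against 2.24 and 4.68 CPM in WT diff_XEN, a rise of 3.14 ± 0.43 on the log2 scale (adjusted p = 0.00447), and over the days it rose by 0.48 ± 0.14 (adjusted p = 0.0245). Pdgfd read 3.69 and 6.08 CPM in KO diff_XEN, against 7.09 and 8.09 CPM in WT diff_XEN, and its difference of -0.59 ± 0.35 did not pass (adjusted p = 0.216). Over the days Pdgfd differed by 0.05 ± 0.19 (adjusted p = 0.885).

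A list of 10 genes for processing and binding of ligands included genes not specific to PDGF, such as Bmper and Htra1. Of these 10 genes, 3 rose and 2 fell in KO diff_XEN, so that 5 of 10 were called, near the 47% of all tested genes. The 3 that rose were Nrp1, a co-receptor (2.78 ± 0.21, adjusted p = 0.00224), Plau, the urokinase-type plasminogen activator (2.99 ± 0.31, adjusted p = 0.00289), and Pcsk5, a proprotein convertase (2.22 ± 0.29, adjusted p = 0.00408). Htra1, a secreted protease, fell by 1.01 ± 0.23 (adjusted p = 0.0174). Over the days, where 17.5% of all tested genes were called, 0 rose and 3 fell. Those that fell were Htra1 (-0.51 ± 0.09), Pcsk6 (-0.53 ± 0.11) and Bmper (-1.02 ± 0.27), with adjusted p = 0.00147 to 0.0175. The median log2 fold change of the 10 genes was 0.60 in diff_XEN and -0.32 over the days, beside -0.02 and -0.01 over all genes. Sparc and Plat stand both in this list and among the primitive endoderm markers.

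Of 32 genes acting downstream of the receptors, 11 rose and 7 fell in KO diff_XEN, with a median log2 fold change of 0.05. The 18 called of 32 stand beside 47% of all tested genes. The Src family kinase gene Yes1 fell by 2.08 ± 0.26 (adjusted p = 0.0039), and the phosphatidylinositol 3-kinase subunit gene Pik3r1 fell by 2.07 ± 0.27 (adjusted p = 0.00404). Over the days 3 of 32 rose and 3 fell, where 17.5% of all tested genes were called. Pik3r1 was lower there as well (-0.73 ± 0.10, adjusted p = 0.000217), as was Map2k1 (-0.28 ± 0.06, adjusted p = 0.00683), while Pik3cb rose by 0.44 ± 0.10 (adjusted p = 0.00716). Summed, the 32 genes read 3786 to 3870 CPM in KO diff_XEN, against 3495 to 3749 CPM in WT diff_XEN.

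Of 16 negative regulators, 6 rose and 3 fell in KO diff_XEN, with a median of 0.37, and the 9 called of 16 stand beside 47% of all tested genes. The ubiquitin ligase gene Cblb rose by 1.55 ± 0.20, the receptor phosphatase gene Ptprj by 1.78 ± 0.27 and Dusp6, which encodes a phosphatase of ERK, by 2.22 ± 0.40 (adjusted p = 0.00419 to 0.00893). Over the days, where 17.5% of all tested genes were called, 2 rose and 2 fell. Among them Ptprj was again higher (0.67 ± 0.11, adjusted p = 0.000817), Spred1 higher (0.47 ± 0.07, adjusted p = 0.000408) and Spry4 lower (-1.05 ± 0.19, adjusted p = 0.00145).

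Of 20 immediate early genes known to respond to PDGF, 13 rose and 2 fell in KO diff_XEN, with a median of 1.38, where 22.1% of all tested genes rose and 24.9% fell. Myc rose by 3.59 ± 0.36, Jun by 2.14 ± 0.23 and Srf by 1.18 ± 0.17 (adjusted p = 0.00279 to 0.00513). Over the days, where 17.5% of all tested genes were called, 1 rose, Srf (0.43 ± 0.13, adjusted p = 0.0333), and 1 fell, Klf4 (-0.94 ± 0.23, adjusted p = 0.0143), which also belongs to the pluripotency genes. Many signals other than PDGF induce these genes, and receptor activity was not measured.

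Of the 5 tested receptor kinases related to the PDGF receptors, 2 rose and 3 fell in KO diff_XEN, where 22.1% of all tested genes rose and 24.9% fell. In KO diff_XEN, Kdr rose by 1.20 ± 0.22 (adjusted p = 0.0092) and Flt4 by 1.4 ± 0.27 (adjusted p = 0.0117), both VEGF receptors. Kit, the stem cell factor receptor 376.7 kb from Pdgfra on chromosome 5, fell by 3.82 ± 0.97 (adjusted p = 0.0255), Flt1 by 2.62 ± 0.80 (adjusted p = 0.0441) and Csf1r, 15.5 kb from Pdgfrb, by 1.75 ± 0.56 (adjusted p = 0.0498). The KO clones were far apart for Kit (3.14 and 28.8 CPM) and Flt1 (8.2 and 49.9 CPM). Both clones lay below WT diff_XEN, at 188 to 289 CPM for Kit and 159 to 213 CPM for Flt1. Of the genes nearer to Pdgfra than Kit, Chic2 read 42.2 to 44.2 CPM in KO diff_XEN against 32.3 to 33.9 CPM in WT diff_XEN. Gsx2 read 0 CPM in KO diff_XEN and at most 0.0271 CPM in WT diff_XEN. Slc26a2, a sulfate transporter gene 107.9 kb from Pdgfrb, read 18.2 and 28.7 CPM in KO diff_XEN, against 513 and 654 CPM in WT diff_XEN (-4.60 ± 0.32, adjusted p = 0.00224). Of the genes nearer to Pdgfrb than Slc26a2, Hmgxb3 fell by 0.56 ± 0.15 (adjusted p = 0.0303), and the differences of Cdx1 (0.24 ± 0.81, adjusted p = 0.829) and Camk2a (1.08 ± 0.58, adjusted p = 0.175) did not pass. Slc6a7, also nearer, read 0 to 0.273 CPM in KO diff_XEN against 0.109 to 0.216 CPM in WT diff_XEN. Over the days Kit, Kdr, Flt3 and Flt4 were not called (log2 fold changes of -0.56, 0.04, -0.17 and 0.16), and Flt1 fell by 0.80 ± 0.18 (adjusted p = 0.00884) and Csf1r by 1.01 ± 0.28 (adjusted p = 0.0234).

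Markers of several cell types also changed in KO diff_XEN, where 22.1% of all tested genes rose and 24.9% fell. Of 21 primitive endoderm and XEN markers, 19 fell in KO cells (median -3.17), with a summed level of 11540 to 13560 CPM in KO cells against 66760 to 96050 CPM in WT cells. Of 12 tested pericyte and vascular smooth muscle markers, 10 rose and 0 fell (median 2.55), with a summed level of 8315 to 9301 CPM in KO cells against 583.6 to 1316 CPM in WT cells. Most of that sum was Acta2 and Tagln, which many contractile cells express. The pericyte marker Higd1b had 0 counts in all 4 diff_XEN libraries, and Rgs5 read 6.77 and 10.7 CPM in KO cells against 0.547 and 2.35 CPM in WT cells. Kcnj8, another pericyte marker, read 0.137 to 0.694 CPM in KO cells against 1.35 to 1.45 CPM in WT cells (-1.56 ± 0.70, adjusted p = 0.121), and Ndufa4l2, which was not tested, read 0.0684 to 0.0868 CPM in KO cells against 0.219 to 0.487 CPM in WT cells. Of 22 mesoderm, fibroblast and mesenchyme markers, 13 rose and 2 fell (median 1.77), with a summed level of 8928 to 11530 CPM in KO cells against 1470 to 2586 CPM in WT cells.

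The alpha receptor is also known from oligodendrocyte progenitors, and of 10 neural and oligodendrocyte progenitor markers all 5 that were tested rose (median 2.63) in KO diff_XEN, where Pdgfra fell. Their summed level was 410.8 to 487.6 CPM in KO cells against 51.12 to 78.77 CPM in WT cells, most of it Nes, and the oligodendrocyte factor Olig2 had 0 counts in all 4 libraries. Of 8 tested endothelial markers, 2 rose and 4 fell (median -1.52), with a summed level of 225 to 294.3 CPM in KO cells against 59.49 to 77.88 CPM in WT cells. Most of that sum in KO cells was Eng, at 179 to 256 CPM. Of 13 tested naive pluripotency genes, 0 rose and 11 fell (median -2.92), with a summed level of 150.2 to 171.8 CPM in KO cells against 607.8 to 626.1 CPM in WT cells. Of all tested genes, 22.1% rose and 24.9% fell in KO diff_XEN. The part of these 6 lists in the changes of the PDGF genes was not tested.

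On days 1 to 4 fewer of these markers were called. The same held for all tested genes, with 17.5% called for the mean of the days against 47% in diff_XEN. Over the days, 2 of 22 mesoderm, fibroblast and mesenchyme markers rose and 2 fell (median -0.08), and of 11 tested pericyte and smooth muscle markers 3 rose and 3 fell (median -0.18). Of 8 tested neural and oligodendrocyte progenitor markers 2 rose and 0 fell, of 9 tested endothelial markers 3 rose and 2 fell, and of 15 naive pluripotency genes 0 rose and 3 fell. Pdgfc was higher in KO cells on days 1 and 2. The mesoderm, fibroblast and mesenchyme sum was 560.4 to 716.7 CPM in KO cells against 739 to 904.1 CPM in WT cells on day 1. On day 2 it was 872.9 to 964.6 CPM in KO cells against 867.9 to 975.5 CPM in WT cells. Any relation between Pdgfc and this sum, which is weighted to abundant genes, was not tested.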

How the data were processed

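The authors deposited unnormalised counts for each gene. The submitters' processing notes name the mm10 build, STAR (2.5.0c) and, for counting, featureCounts (1.4.5-p1); the annotation and strand setting are not given in the sources used here. Groups came from the labels. Of 24 samples in 12 groups, 22 libraries were used; 3 columns that no label ties to 1 sample were not used. Of 43629 endpoint identifiers, 42462 had a symbol.

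Counts were tested with edgeR 4.0.16 in R 4.3.3 (quasi-likelihood test, TMM, default expression filter by group, robust, Benjamini-Hochberg over all genes, called below 0.05). The 16 course libraries formed 1 fit, the 4 diff_XEN libraries 1 fit, and all 6 endpoint libraries 1 fit, giving 16 comparisons of 17694, 16671 and 17936 tested genes. SE is the absolute log2 fold change over the square root of F. CPM used TMM-scaled totals, and exon lengths came from GENCODE M21. The code was tested on simulated counts. Alternatives were DESeq2 1.42.0, its size factors, no filter, a replicate block, 4-library fits and leaving out each library. Correlations used log2 CPM with a prior count of 2.

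The members and all gene lists were chosen with earlier results of these data known. Named genes were the members, Ago2, up to 3 called genes of smallest p per list (all in lists of 6 or fewer), and the genes most alike in pattern (5 for Pdgfra, 3 for each other member). Htra1 in diff_XEN, Higd1b, Rgs5, Kcnj8, Ndufa4l2, Acta2, Olig2, Hmgxb3, Cdx1, Camk2a, Slc6a7, Chic2 and Gsx2 were added after their values were seen. 1 gene that the rule names is not reported here. No replicates were merged, since all pairs exceeded sampling noise (chi-square per degree of freedom 12.6 to 149).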

Additional observations from a re-analysis of the deposited data

Results flagged for a closer look

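The genotype difference of Pdgfrb ran in opposite directions at the start of the course and in diff_XEN. On day 1 both KO libraries lay below both WT libraries (log2 fold change -1.13), whereas in diff_XEN both KO clones lay above both WT libraries (log2 fold change 3.37). The difference between these effects was not tested, because the course and diff_XEN libraries were counted in separate tables and fitted apart, and the day 1 value did not pass the threshold on its own.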

How the results depend on the processing

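No direction of a called member reversed under any alternative. Depth limits precision most where counts were lowest. This was so for Pdgfra in KO cells on day 1 (79 and 27 counts) and, in WT cells on day 2, for Pdgfc (41 and 46) and Pdgfb (69 and 65). The causes of the changes below were not tested. Without the filter on low counts, genes called were 3754 on day 1 against 2406, 1094 on day 2 against 288, 2035 on day 3 against 854, 2119 on day 4 against 1246, 1833 against 216 for day 4 versus day 3 in WT, 2651 against 1654 for day 3 versus day 2 in KO, 1733 against 62 for day 4 versus day 3 in KO, and 2707 against 1136 for the difference between genotypes. Members called without the filter were 2 on each of days 2, 3 and 4, 2 for day 2 versus day 1 in WT, 3 and 2 for day 4 versus day 3 in WT and KO, and 2 for the difference between genotypes. The DESeq2 Wald test called 590 genes on day 2, 1327 on day 3, 944 and 828 for day 4 versus day 3 in WT and KO, and 2208 for the difference between genotypes, with 2 members on day 2, 1 on day 4, 2 for day 2 versus day 1 in WT, 2 for day 4 versus day 3 in KO and 2 for the difference. Fits of 4 libraries alone called 1440 genes on day 2, 35 on day 3, 6351, 619 and 0 for the successive steps in WT, and 696 and 0 for the last 2 steps in KO, with 2 members on day 2, 0 on day 3, 2 on day 4, 3 for day 2 versus day 1 in WT and 1 for day 3 versus day 2 in KO; those of day 4 were Pdgfra and Pdgfrb.

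Deviations of same-numbered KO and WT libraries correlated at -0.153, 0.035, -0.144 and 0.633 on days 1 to 4. Pairing was taken only from a correlation above 0.1 on every day, so the numbers were not used as pairs, although those of day 4 deviated together. Within both numbers of day 4, KO exceeded WT for Pdgfa, Pdgfb and Pdgfc, and the block called none of them there (adjusted p = 0.265, 0.081 and 0.398). With the replicate block, 18 genes were called for day 4 versus day 3 in KO against 62, Pdgfb over the mean of the days became 0.42 (adjusted p = 0.0315), Pdgfc for day 2 versus day 1 in KO became -1.07 (adjusted p = 0.0567), and no other member changed its call. No paired analysis was possible for diff_XEN because its columns carry no replicate numbers.

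Leaving out each library in turn gave these ranges of members called and of genes called: 0 to 2 and 45 to 4225 on day 1, 0 to 0 and 49 to 105 on day 2, 0 to 2 and 271 to 2643 on day 3, 0 to 0 and 443 to 835 on day 4, 2 to 4 and 2266 to 3893 for the mean of the days, 3 to 3 and 6081 to 7274 for day 4 versus day 1 in WT, 4 to 4 and 10025 to 11208 for it in KO, and 0 to 1 and 222 to 3133 for the difference between genotypes. For the successive steps they were 0 to 1 and 1259 to 2292, 2 to 3 and 333 to 3144, and 0 to 1 and 0 to 2272 in WT, and 1 to 3 and 3802 to 7351, 1 to 2 and 144 to 1910, and 0 to 2 and 1 to 1333 in KO. For KO versus WT diff_XEN they were 3 to 5 and 4180 to 6952, and for WT diff_XEN versus WT mESC 1 to 3 and 6389 to 9043. A library left alone in its group is assumed to vary like the others.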
